A study of Mus musculus with 45 samples.

Results

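The subject of these data is occupancy of Capicua (CIC) at the gene that encodes it, Cic, and at 3 mouse genes known to encode an AXH domain, Atxn1, Atxn1l and Hbp1. CIC is an HMG-box repressor that binds short AT-rich octamers in promoters and enhancers, and it is best known for keeping RAS-ERK target genes low. ATXN1 and its paralogue ATXN1L hold CIC through the AXH domain and stabilise it, and HBP1 is an HMG-box repressor with an AXH domain of its own. CIC is made in a long and a short form from 2 start sites. Members were selected on position: every summit of a deposited CIC peak list that lay in the body of one of the 4 genes, or within 20 kb of either end. This gave 28 summits in 18 peaks, of 9218 summits in 7213 peaks over the 3 lists. Because the peak calls themselves chose the members, their presence and strength are described here without a test.

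CUT&RUN was carried out on cerebellar nuclei of C57BL/6 mice at 10 weeks of age. The genotypes were WT (n = 4), 154Q, with an expanded polyglutamine tract in 1 Atxn1 allele and a normal 2Q allele (n = 4), 154Q[V591A;S602D], whose expanded allele also carries 2 substitutions in the AXH domain (n = 3), and CIC KO, which is Engrailed1-Cre with both Cic alleles floxed (n = 4). Engrailed1-Cre acts in the Engrailed1 lineage, so cells from outside that lineage keep Cic, and the sources used here do not give which segment of Cic is floxed. Peaks had been called for each genotype after its replicates were pooled, with pooled CIC KO libraries as the control. It is therefore a single observation with no spread between animals, and all 3 lists share their control. For Cic itself, a gain in a genotype and the missing Cic DNA of the deleted control cells cannot be told apart. The WT list held 4596 peaks, the 154Q list 1695 and the 154Q[V591A;S602D] list 922. Only the 154Q list is labelled as filtered for repeats, so the lengths are not fully comparable. Total reads are not in these lists. The genome-wide control background, which scales with the depth of the treatment library, stood at 6.59 fragments in WT, against 5.28 in 154Q[V591A;S602D] (1.25 times), and was unknown for 154Q.

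The member peaks clustered at few sites. The WT list held 8 of them, 7 at Cic and 1 at Hbp1, the 154Q list held 5, 4 at Cic and 1 at Hbp1, and the 154Q[V591A;S602D] list held 5, 3 at Cic, 1 at Hbp1 and 1 at Atxn1. Atxn1l had none in any list. When summits within 200 bp of each other were joined, the 28 summits fell into 10 loci, and 3 were found in all 3 lists. These were the Hbp1 promoter, the start of Cic intron 1, and the Pafah1b3 promoter just past the 3′ end of Cic. In WT and 154Q the intron 1 locus also took in summits at the long Cic promoter. The short Cic promoter was found in WT and 154Q. Of the other 6 loci, 4 were found in WT alone and 2 in 154Q[V591A;S602D] alone. Over the whole WT list, 72.8% of the 4596 peaks had no summit of another list within 200 bp, and 395 had one of both. The share of lone peaks was not computed for 154Q[V591A;S602D], so whether its 2 lone loci are ordinary is not known. As background, 25.6% of 21938 protein-coding genes had a summit in the body or within 20 kb in the WT list, 11.9% in 154Q, and 7.07% in 154Q[V591A;S602D], against 2, 2 and 3 of the 4 members. Within 1 kb of a start site the shares of all genes were 11.7%, 4.88% and 2.82%, against the same 2 members, Cic and Hbp1, in each list. With 4 genes, these counts are read as a description only. When each list was cut to its strongest 922 peaks, the member peaks numbered 4 (WT), 3 (154Q) and 5 (154Q[V591A;S602D]).

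**Figure D1:**
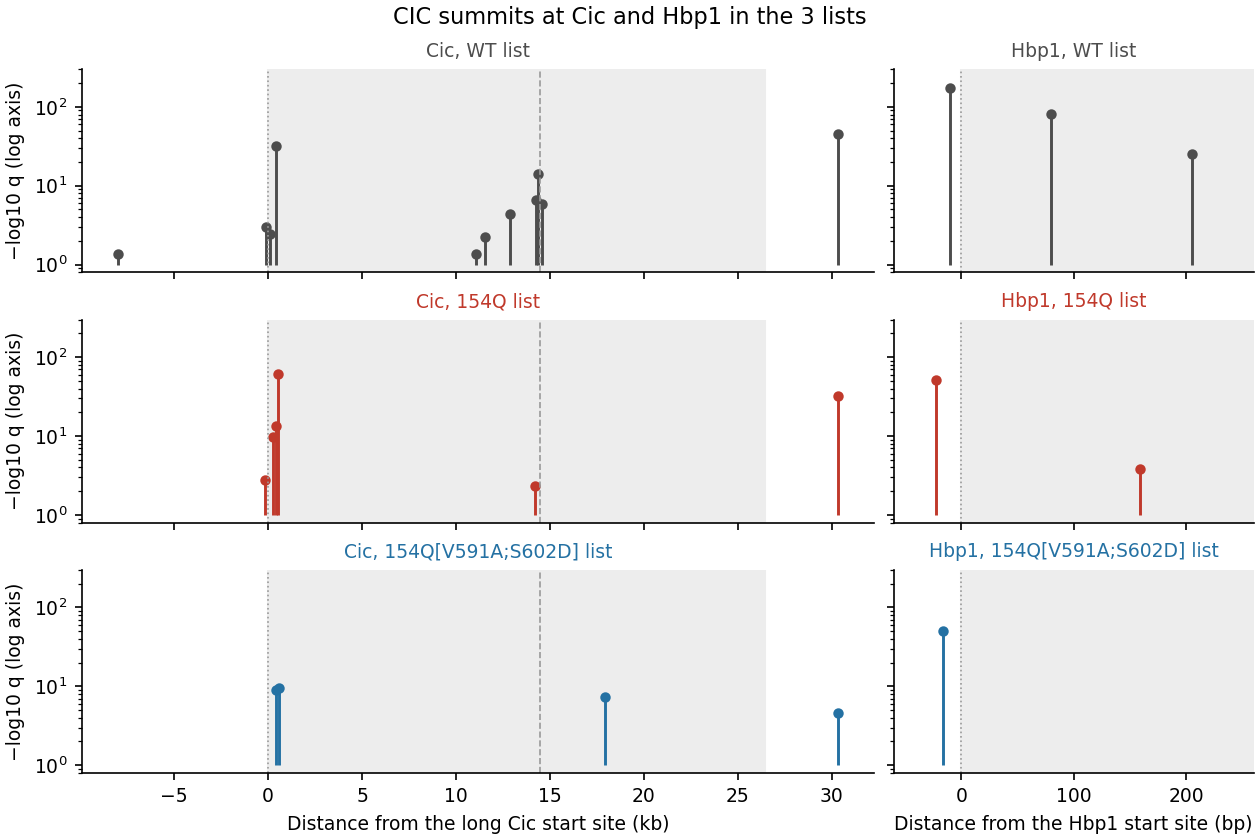
Position of each CIC summit at Cic (left, kb from the long start site) and Hbp1 (right, bp from the start site) in the 3 lists, with stem height the −log10 q of the summit on a log axis; grey marks the transcribed region, dotted lines the start sites and the dashed line the short Cic start site. Each list has summits near 0 at both genes and at 30.3 kb past the long Cic start site, whereas those at 11 to 13 kb are in WT alone.

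The sequences at these sites are given first, since they hold the bases over which CIC signal peaked (GRCm38, 5′ to 3′ on the strand of the gene). For Hbp1 (minus strand, chr12:31950516-31950765) and Pafah1b3 (minus strand, chr7:25297967-25298216) the window runs from 230 bases before to 20 bases after the start site, and capitals mark the stretch from the first to the last of the strongest summits of the 3 lists. For the long (plus strand, chr7:25267449-25267748) and short (plus strand, chr7:25281929-25282228) Cic promoters the RefSeq promoter window is shown, and capitals mark up to 11 bases around each summit inside it. The intron 1 window (plus strand, chr7:25268102-25268308) has capitals around the strongest summit of WT, 154Q and 154Q[V591A;S602D], in that order.
Hbp1 promoter: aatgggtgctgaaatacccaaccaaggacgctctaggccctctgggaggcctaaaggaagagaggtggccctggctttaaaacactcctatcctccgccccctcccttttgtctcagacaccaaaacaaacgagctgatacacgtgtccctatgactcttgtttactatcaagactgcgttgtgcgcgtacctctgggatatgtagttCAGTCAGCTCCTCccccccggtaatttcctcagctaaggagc
Pafah1b3 promoter: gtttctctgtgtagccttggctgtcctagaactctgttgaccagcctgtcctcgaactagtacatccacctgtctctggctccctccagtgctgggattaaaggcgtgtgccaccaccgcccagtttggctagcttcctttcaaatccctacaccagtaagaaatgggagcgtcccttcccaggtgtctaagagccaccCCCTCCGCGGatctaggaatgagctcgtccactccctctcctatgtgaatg
Cic long promoter: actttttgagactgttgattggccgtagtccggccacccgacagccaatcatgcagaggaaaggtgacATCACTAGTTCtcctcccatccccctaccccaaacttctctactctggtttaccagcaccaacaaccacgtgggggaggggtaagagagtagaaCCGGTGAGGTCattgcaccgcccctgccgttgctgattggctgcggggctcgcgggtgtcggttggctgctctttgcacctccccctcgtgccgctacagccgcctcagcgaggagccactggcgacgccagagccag
Cic short promoter: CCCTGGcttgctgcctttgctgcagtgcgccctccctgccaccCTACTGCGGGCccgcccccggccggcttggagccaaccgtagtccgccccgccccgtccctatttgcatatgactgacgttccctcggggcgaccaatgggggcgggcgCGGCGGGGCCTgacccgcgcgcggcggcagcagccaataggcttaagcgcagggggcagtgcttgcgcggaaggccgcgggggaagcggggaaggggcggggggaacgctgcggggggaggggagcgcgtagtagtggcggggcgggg
Cic intron 1 site: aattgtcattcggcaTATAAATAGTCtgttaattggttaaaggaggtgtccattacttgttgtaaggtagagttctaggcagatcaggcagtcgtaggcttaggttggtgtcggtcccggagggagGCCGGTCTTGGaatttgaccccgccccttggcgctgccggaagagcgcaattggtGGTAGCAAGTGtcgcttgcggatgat
The GC content was 52.4% in the Hbp1 window, 54.8% in the Pafah1b3 window, 60.3% in the long and 74.3% in the short Cic promoter, and 51.2% in the intron 1 window. The short Cic promoter held 34 CpG dinucleotides in 300 bases, the long one 17.

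The Hbp1 promoter carried the strongest member peak of the WT and 154Q[V591A;S602D] lists. In the 154Q list the peak in Cic intron 1 was stronger. Hbp1 represses cell cycle genes and WNT targets, and its gene lies at chr12:31926254-31950535 on the minus strand. In the WT list the strongest summit was 10 bp upstream of the start site, with a −log10 q of 173 and rank 14 of 4596 peaks. In the 154Q list it was 22 bp upstream, with a −log10 q of 51.6 and rank 46 of 1695, and in the 154Q[V591A;S602D] list 16 bp upstream, with a −log10 q of 49.9 and rank 16 of 922. With repeat peaks removed the WT and 154Q[V591A;S602D] ranks were 7 and 8, and the 154Q rank stayed at 46. As deposited, the peak stood among the strongest 0.305%, 2.71% and 1.74% of the 3 lists. The 3 summits lay within 12 bp of each other, whereas the median spread over the 395 loci with a WT peak and a summit of both other lists within 200 bp was 69 bp, and 9.62% of those loci had a spread of 12 bp or less.

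Behind the WT summit stood a pileup of 305 fragments (95% exact Poisson interval 272 to 341) over a control background of 33.1, and behind the 154Q[V591A;S602D] summit 142 fragments (120 to 167) over 26.6. These are 46.3 and 26.9 times the genome-wide background of the respective list. The pileup was 9.21 times the control background (8.21 to 10.3) in WT and 5.33 times (4.49 to 6.29) in 154Q[V591A;S602D], so the intervals, which cover counting error only, did not overlap. The WT peak also held weaker summits in the untranslated first exon, 80 bp and 205 bp past the start site, with 244 fragments each over backgrounds of 49.1 and 106, and −log10 q of 82.1 and 25.1. The one at 205 bp was also 107 bp upstream of another annotated Hbp1 start site. The control background therefore rose into the first exon while the pileup fell. The 154Q peak had a second summit 159 bp past the first start site, 153 bp upstream of the other, with a −log10 q of 3.84. The 154Q[V591A;S602D] peak had no further summit.

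Inside the Cic gene body and its promoters, the highest −log10 q of each list lay at the start of intron 1 (gene at chr7:25267704-25294159, plus strand). The WT peak was 868 bp wide with summits at 88 bp upstream and at 101 and 418 bp downstream of the start site, and −log10 q of 3.0, 2.47 and 32.1. The 154Q list had a separate weak summit 182 bp upstream (−log10 q 2.75, rank 1086) and a peak with summits 250, 421 and 529 bp downstream (−log10 q 9.63, 13.5 and 62.0). The 154Q[V591A;S602D] peak had summits 447 and 584 bp downstream, with −log10 q of 9.11 and 9.57. All the downstream summits were in intron 1. The ranks of the peak in WT, 154Q and 154Q[V591A;S602D] were 119, 38 and 103, that is within the strongest 2.59%, 2.24% and 11.2%. The strongest summits of the lists spread over 166 bp, and 85.8% of loci found in all 3 lists had a spread up to this.

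The Cic intron 1 site stood on an unusually high control background. The WT summit had 400 fragments (362 to 441) over a background of 196, which is 29.8 times the genome-wide value and at percentile 99.7 of all WT summits. The 154Q[V591A;S602D] summits had 206 and 112 fragments over backgrounds of 115 and 48.9. The pileup was 2.04 times the background (1.85 to 2.25) in WT and 1.79 (1.55 to 2.05) and 2.3 times (1.89 to 2.76) in 154Q[V591A;S602D]. The authors' fold enrichment of 2.04 placed the WT summit at percentile 5.25 of its list, although its pileup was at percentile 99.7. When peaks were ranked by fold enrichment the peak fell to 4393 of 4596 in WT and 860 of 922 in 154Q[V591A;S602D]. Its rank was thus high by significance and by pileup, but not by fold over the local control. No fold enrichment was given for 154Q.

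**Figure D2:**
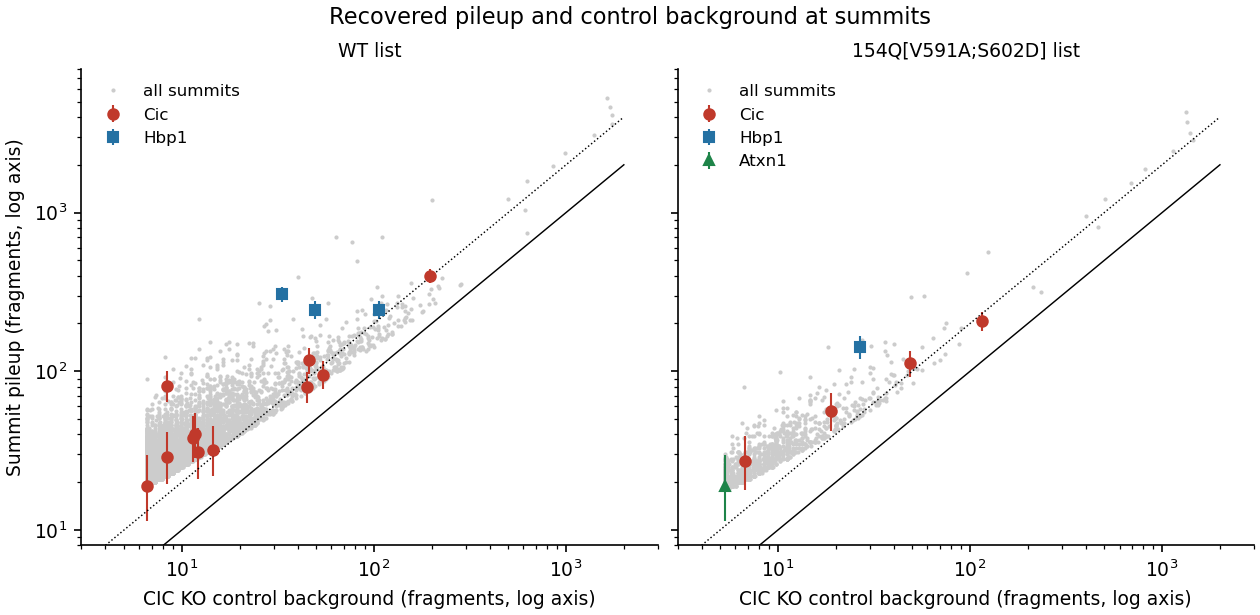
Fragment pileup (y, log axis) against CIC KO control background (x, log axis) at all summits (grey) and member summits (coloured, with 95% exact Poisson intervals) of the WT and 154Q[V591A;S602D] lists; the solid line is equality and the dotted line 2 times the control. The Cic intron 1 summits lie near the dotted line at high background, whereas the Hbp1 summit at 305 fragments lies far above it.

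The short Cic promoter (start site at 25282179, inside intron 2 of the long form) was found in WT and 154Q. The WT peak had summits 202 and 93 bp upstream and 78 bp downstream of the start site, the last in the untranslated first exon of the short form. Their −log10 q was 6.62, 14.0 and 5.92, and the peak ranked 501. The middle summit had 117 fragments (96.8 to 140) over a background of 45.6, or 2.56 times (2.12 to 3.07). The 154Q list had a single summit 250 bp upstream, with a −log10 q of 2.3 and rank 1207. The 154Q[V591A;S602D] list had no summit there. If the WT pileup and background of the middle summit were divided by the depth ratio of 1.25, the −log10 p would be 15.2, above the weakest −log10 p of 5.18 in the 154Q[V591A;S602D] list. This scaling takes depth alone into account. At peaks shared by the 2 lists, the WT pileup after it was still a median 1.29 times that of 154Q[V591A;S602D]. Whether the signal of these mice differed from WT was not tested.

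Inside intron 2, 3 weak peaks were found in WT alone, at 11.1, 11.5 and 12.9 kb from the long start site. Their −log10 q was 1.35, 2.27 and 4.39 and their ranks were 4556, 3245 and 2041. Pileups of 32, 31 and 29 fragments stood over backgrounds of 14.6, 12.1 and 8.38. Scaled to the 154Q[V591A;S602D] depth alone, they would give −log10 p of 4.06, 4.96 and 6.72, where the weakest of that list was 5.18. Why they are absent from that list was not tested. A WT peak 8.0 kb upstream of Cic (−log10 q 1.37, rank 4280, 19 fragments over 6.59) lay wholly in soft-masked repeat sequence. Being found in WT alone was common, since 72.8% of all WT peaks had no summit of another list within 200 bp. This share covers the lists as deposited, with repeat peaks still in WT. Because the 154Q list is labelled as filtered for repeats, the absence of the upstream repeat peak from it is not informative.

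The 154Q[V591A;S602D] list had a peak in coding exon 6 of the long form, 18.0 kb from the long start site, at chr7:25285657. Its −log10 q was 7.23 and its rank 153 of 922. There were 56 fragments (42.3 to 72.7) over a background of 18.8, or 2.98 times (2.25 to 3.87). Neither other list had a summit within 200 bp. Since the floxed segment is not known here, whether this exon is among the deleted DNA of the control was not tested.

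The last locus of the Cic window belonged by position to Pafah1b3, a catalytic subunit of the platelet-activating factor acetylhydrolase 1b complex, which is transcribed toward Cic (chr7:25295049-25297986, minus strand). The strongest summits lay 22 bp (WT), 31 bp (154Q) and 26 bp (154Q[V591A;S602D]) upstream of its start site, a spread of 9 bp. In the same order the −log10 q was 45.5, 32.0 and 4.60. The ranks were 67, 80 and 298, that is the strongest 1.46%, 4.72% and 32.3%. The WT summit had 81 fragments (64.3 to 101) over 8.37 and the 154Q[V591A;S602D] summit 27 fragments (17.8 to 39.3) over 6.71. The background was 1.27 times the genome-wide value in both. The pileup was 9.68 times the background (7.69 to 12.0) in WT and 4.03 times (2.65 to 5.86) in 154Q[V591A;S602D], intervals that did not overlap. Unlike the intron 1 site, this peak rose in the WT list when ranked by fold enrichment, to 15.

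**Figure D3:**
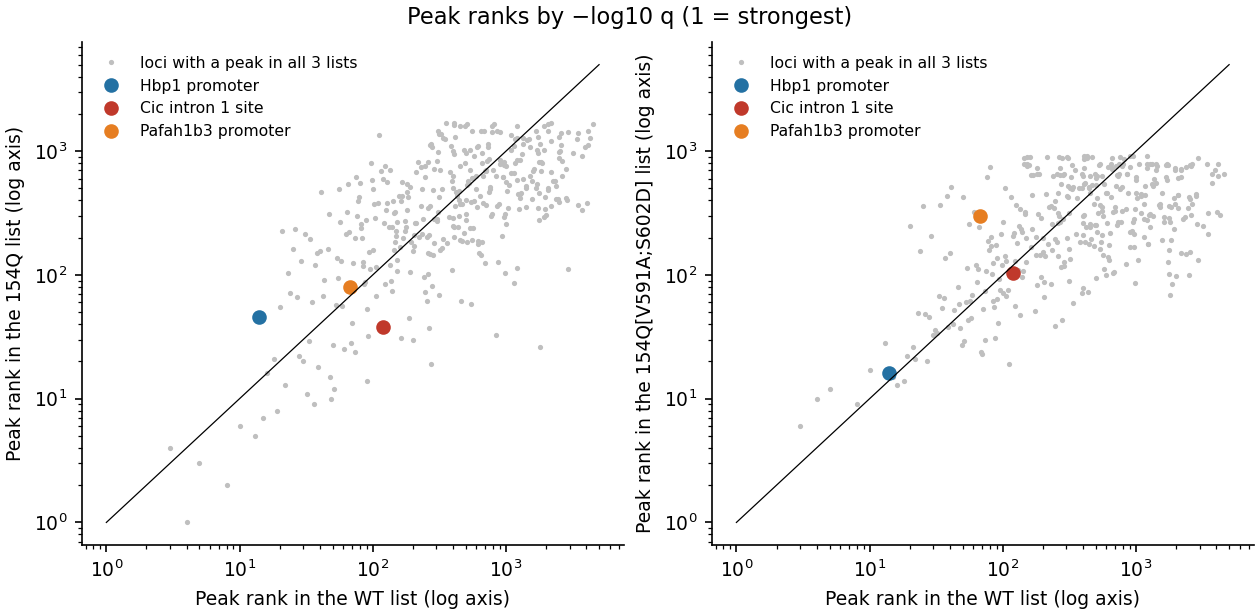
Peak rank by −log10 q in the 154Q list (left) and the 154Q[V591A;S602D] list (right) against the rank in the WT list, all on log axes, with 1 the strongest; grey points are the loci found in all 3 lists and the line is equality. The Cic intron 1 site ranks 38 in 154Q and 119 in WT, Hbp1 46 and 14.

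The 3 shared loci differed in how they moved between lists. Hbp1 ranked lower in 154Q than in WT, Pafah1b3 ranked at 80 and 67, and the peak with its strongest summit in Cic intron 1 ranked higher in 154Q, at 38 and 119. Of the 395 loci found in all 3 lists, 43.0% ranked lower in 154Q than in WT. The ratio of the 154Q rank to the WT rank was smaller than that of Hbp1 at 87.6% of these loci, than that of Pafah1b3 at 62.8% and than that of Cic at 17.7%. These shares are for the lists as deposited, of which only 154Q is labelled as filtered for repeats. With repeat peaks removed, the 154Q and WT ranks were 46 and 7 at Hbp1 and 80 and 58 at Pafah1b3. At Cic they were 38 and 107. The lists differ in length, depth and repeat filtering, so ranks are set side by side and were not tested.

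WT and 154Q[V591A;S602D] could also be set side by side by pileup per genome-wide background. The WT value was taken at the strongest summit of the WT peak and the other at the nearest summit of its list. The 2 summits were thus not picked alike, which can raise the ratio. The study normalized its signal to an E. coli spike-in, which was not used here. The ratio of WT to 154Q[V591A;S602D] was 1.72 at the Hbp1 promoter (95% interval 1.41 to 2.12, summits 6 bp apart), 1.56 at the Cic intron 1 site (1.31 to 1.85, 29 bp apart) and 2.40 at the Pafah1b3 promoter (1.54 to 3.87, 4 bp apart). At Cic the shared control was itself 29.8 times its genome-wide value at the WT position and 21.9 times at the 154Q[V591A;S602D] position, whereas it was 5.03 and 5.04 times at Hbp1 and 1.27 times at both Pafah1b3 positions, and over the local control the Cic intervals of the lists overlapped. The intervals come from exact binomial limits, cover counting error only and say nothing of the spread between mice. In nuclei of the whole cerebellum, fewer occupied cells and less signal per cell cannot be told apart. Over the 593 WT peaks with a 154Q[V591A;S602D] summit within 200 bp, the median ratio was 1.29 and the middle 50% ran from 1.00 to 1.63, so the Hbp1 ratio stood above 80.3% of them, that of Cic above 70.5% and that of Pafah1b3 above 96.3%.

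**Figure D4:**
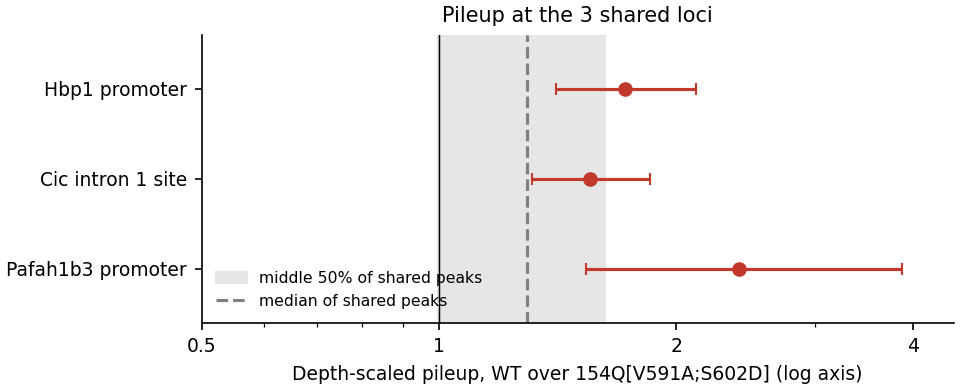
Ratio of depth-scaled summit pileup in WT to that in 154Q[V591A;S602D] (log axis) at the 3 loci found in all lists, with 95% binomial intervals of counting error; grey marks the middle 50% of the ratios over 593 shared peaks and the dashed line their median of 1.29. All 3 points lie to the right of the median, between 1.56 and 2.40.

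Atxn1 had a single weak peak, in the 154Q[V591A;S602D] list. The gene (chr13:45549755-45965008, minus strand) encodes the protein whose polyglutamine tract is expanded in SCA1. The peak spanned chr13:45568460-45568765 with its summit at 45568526, in the untranslated part of exon 7 of 8, 109 bp before the start codon and 396 kb from the 5′ end of the gene. Its −log10 q was 1.98, its rank 659 of 922, and 19 fragments (11.4 to 29.7) stood over the genome-wide background of 5.28. At q below 0.001 it was no longer counted. The codons of V591 and S602 in human numbering were located in the GENCODE mouse protein by the only shift of up to 40 residues that puts V and S there. By this placement, which rests on letters alone, they lie in the same exon, 1804 and 1837 bp from the summit. The study numbers the mouse residues on another scale. The polyglutamine tract lies between the start codon and the AXH domain and so in this exon too. The exon thus carries the expanded tract in 154Q mice, the tract and the substitutions in 154Q[V591A;S602D] mice and neither in the control. A part of the altered alleles in the call was not tested. Of the 567 protein-coding genes of 300 kb or longer, a peak was present for 33.9% (WT), 15.9% (154Q) and 7.58% (154Q[V591A;S602D]). The nearest summits outside the Atxn1 window were 88.1 kb away in WT, 253 kb in 154Q and 763 kb in 154Q[V591A;S602D].

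Atxn1l (chr8:109726451-109737739, minus strand) had no summit in its window in any list. The nearest one was 439 kb away in WT, 1182 kb in 154Q and 1182 kb in 154Q[V591A;S602D]. Of the 7639 protein-coding genes of 5 to 20 kb, the length class of Atxn1l, a peak was present for 25.7% (WT), 12.6% (154Q) and 7.58% (154Q[V591A;S602D]). With a smallest called pileup of 19 fragments in WT and 18 in 154Q[V591A;S602D], weaker occupancy was not detectable at this depth. By protein sequence Atxn1l was the nearest relative of Atxn1, with 41.2% identity over 641 aligned residues of proteins of 791 and 687 residues. Hbp1 (526 residues) aligned with Atxn1 over 108 residues at 32.4% and with Atxn1l over 108 residues at 31.5%. The alignment with Atxn1 covered its residues 550 to 659.

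None of the 28 member summits had the CIC octamer nearby. The words TCAATGAA, TCAATGGA, TGAATGAA and TGAATGGA were searched on both strands within 50 bp of each summit, and 0 of 14 member summits in WT, 0 of 8 in 154Q and 0 of 6 in 154Q[V591A;S602D] held one, nor did any within 100 bp. Over all summits on the assembled chromosomes the share within 50 bp was 2.28% (WT), 6.16% (154Q) and 3.27% (154Q[V591A;S602D]), and 3.84% of 32851 RefSeq promoter windows of 300 bases held one. None of the 5 printed windows had it. The 6-base words TCAATG and TGAATG, searched after this was seen, were within 50 bp of 3 WT, 1 154Q and 2 154Q[V591A;S602D] member summits, which include all 3 summits at the Pafah1b3 promoter. These words were found near 8.30%, 14.2% and 8.0% of all summits of the respective list, and in 19.9% of the RefSeq promoter windows of 300 bases.

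Base composition differed among the member sites. The 101 bases around the WT summit in Cic intron 1 had a GC content of 36.6%, at percentile 1.91 of WT summits, and those around the 154Q[V591A;S602D] summit 447 bp from the start site 39.6%, at percentile 1.98. The 154Q summit 421 bp from it had 35.6%. The strongest summits of 154Q, at 529 bp, and 154Q[V591A;S602D], at 584 bp, had 63.4% and 57.4%. At the short Cic promoter the WT summits had 72.3% to 76.2%, at percentiles 94.3 to 97.8. Hbp1 and Pafah1b3 lay near the middle, at 53.5% and 55.4% for the strongest WT summit, against a median of 56.4% over the WT list.

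Known partners of the complex were listed for comparison. Of 30 genes for partners of ATXN1 or CIC, 29 were matched in the annotation, and 16 had a summit in the body or within 20 kb in WT. In 154Q the number was 9, and in 154Q[V591A;S602D] 7. These are 55.2%, 31.0% and 24.1% against the background shares of 25.6%, 11.9% and 7.07%. The background is all protein-coding genes and was not matched for gene length or promoter type. At promoters (within 1 kb of a start site) the counts were 13, 8 and 6, against 11.7%, 4.88% and 2.82% of all genes. These shares describe lists that have their control in common and genes chosen with earlier results known, so they are not independent of each other or of the data. The 6 genes with a promoter peak in all 3 lists were Zbtb5, U2af2, Hdac4, Sin3a, Rps6ka5 and Smarca4. Hdac4, a histone deacetylase, had ranks of 20 (WT), 55 (154Q) and 250 (154Q[V591A;S602D]). Sin3a, the scaffold of a histone deacetylase complex, ranked 63, 214 and 121. Zbtb5, a zinc finger protein, ranked 83, 199 and 101. Rps6ka5, the kinase MSK1, ranked 80, 554 and 744. Smarca4, the ATPase of the SWI/SNF remodeller, ranked 301, 282 and 436, and U2af2, a splicing factor, 748, 319 and 363. In all, 13 of the 29 had no summit in any list, among them Zkscan1, Rbm17, Ncor1, Hdac1, Hdac2 and Gfi1.

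Of the 14 genes for partners and targets of HBP1, Ccnd1, Cdkn1a and Dnmt1 had a summit in the body or within 20 kb in both WT and 154Q, and 0 of 14 did in 154Q[V591A;S602D]. At promoters only Dnmt1, the maintenance DNA methyltransferase, had a peak, with rank 955 in WT and 564 in 154Q. The share was 21.4% in each of WT and 154Q, against background shares of 25.6% and 11.9%, and the background in 154Q[V591A;S602D] was 7.07%, at which few of 14 genes have a peak.

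Likeness in rank was measured over the 386 protein-coding genes with a promoter peak in all 3 lists, as the distance between log10 ranks over the 3 lists. The genes nearest to Hbp1 were Sec16a, which organises exit sites of the endoplasmic reticulum (ranks 27, 66 and 20, distance 0.340), Gm21887 (18, 21 and 14, distance 0.362) and Gm47283 (16, 16 and 13, distance 0.471). Nearest to Cic were the cytokine receptor gene Crlf2 (90, 53 and 137, distance 0.226), Hexim2, an inhibitor of transcription elongation (164, 31 and 167, distance 0.267), and Rbpj, the DNA-binding effector of Notch (106, 67 and 129, distance 0.270).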

How the data were processed

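The authors profiled cerebella of 15 mice by CUT&RUN with antibodies to CIC, H3K27ac and IgG (45 samples). The 30 H3K27ac and IgG samples were not analysed here. Per the methods and the submitters' processing notes, reads were trimmed (Trimmomatic 0.36) and aligned (Bowtie2 2.3.4.1) to mm10, CIC fragments under 120 bp were kept (SAMtools 1.10), blacklisted regions were removed (bedtools 2.29.1), libraries were merged by genotype, and MACS3 called peaks at q of 0.05 against merged CIC KO libraries. Peaks over 50% repeat were to be omitted. As deposited, the 154Q list is labelled as filtered for repeats. The lists of WT and 154Q[V591A;S602D] are not so labelled and still hold such peaks. As deposited, the lists of WT and 154Q[V591A;S602D] give the fold enrichment, a ratio of pileup to control background with 1 added to each, and −log10 p and −log10 q. The deposited 154Q list gives summits and −log10 q alone.

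Summit lines were joined to peaks by the authors' peak number, and peaks were ranked by their highest −log10 q. Pileup and background were recovered by searching for the whole number of fragments that satisfies both the fold enrichment and the Poisson p (tolerance 0.02 in −log10 p), for 100% of summits. The solution was tested on simulated data. Genes and start sites came from GENCODE M21 basic and sequence from GRCm38.p6 with RefSeq promoter windows. Coordinates are 1-based. Proteins were translated from that annotation and aligned locally (Biopython 1.88, BLOSUM62, gaps −11 and −1). No test between genotypes was run, since each list is a single observation. Members and gene lists were chosen with earlier results of these data known. Named genes were the members, genes with a start site within 1 kb of a member summit, partner genes with a promoter peak in all 3 lists and the 3 genes nearest in rank. Alternatives were other gene windows, q below 0.001, equal list length, repeat removal, linkage of 100 and 500 bp, fold ranking, a genome-wide background, protein-coding start sites, other motif windows and words, and PAM250. Other gene names in the text, such as genes without peaks, came from the same lists.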

Additional observations from a re-analysis of the deposited data

How the results depend on the processing

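No paired analysis was possible because replicates were merged before peak calling, and for the same reason no animal could be left out. Of 130 alternative values, 99 stayed within the limits set and 31 moved. With 50 kb windows WT had 13 member peaks. At q below 0.001, WT had 5 and 154Q 3, and the loci fell to 6. At equal list length WT had 4, 154Q 3 and 154Q[V591A;S602D] 5. With repeat peaks removed Hbp1 moved to rank 7 (WT) and 8 (154Q[V591A;S602D]). Ranked by fold enrichment, the Cic intron 1 site fell to 4393 (WT) and 860 (154Q[V591A;S602D]), and the Pafah1b3 promoter rose to 15 in WT. Against the genome-wide background the fold enrichment in WT and 154Q[V591A;S602D] was 40.3 and 22.8 at Hbp1 and 52.9 and 18.0 at Cic, where the strongest summits lie apart. At the 154Q[V591A;S602D] summit nearest the WT one, added after seeing the data, it was 33.0. The hexamers, chosen after seeing the data, were near 3, 1 and 2 member summits. Within 1 kb of a start site, HBP1 partners and targets with a peak were 1 in WT and 1 in 154Q. Under PAM250 the identity of Atxn1 and Atxn1l was 36.2% and that of Atxn1l and Hbp1 21.4%. The count of loci found in all 3 lists stayed at 3 with summits joined at 100 or 500 bp, while all loci numbered 15 and 9. Depth was unknown for 154Q, so absence from a list cannot be read as absence of binding.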
